A study of Mus musculus with 126 samples.

Results

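The SOX family genes Sox9, Sox10, Sox4, Sox11, Sox12, Sox5 and Sox6, together with BC006965, a non-coding transcript on the strand opposite Sox9, were followed through single cells of the mouse endolymphatic sac. These 8 genes were taken by symbol from a table of 48490 gene identifiers, and all 8 were found. The sac, an outpocketing of the inner ear, takes part in regulating its fluid, the endolymph. The series holds 126 cells of age E14.5, each copied into cDNA by Smart-seq2, a plate-based method that covers whole transcripts. By label, 33 cells were wild type and 93 carried 1 Sox9 Y440X allele beside a normal one (Sox9 Y440X/+, called mutant here). The labels name no animal or litter, so each genotype counted as 1 sample, no test between genotypes was possible, and intervals cover counting error only.

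SOX proteins are transcription factors that bind DNA through a shared HMG box. Sox9 and Sox10 encode SOXE factors: SOX9 is known for driving cartilage formation and acts in the early inner ear, and SOX10 is known for glia and pigment cells and is also made in inner ear epithelium. Sox4, Sox11 and Sox12 encode SOXC factors of immature and progenitor cells. Sox5 and Sox6 encode SOXD factors, which lack a transactivation domain and assist SOX9 in cartilage.

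The mutation and the relatedness of the SOXE pair can be read in their coding sequences. In mouse Sox9, as annotated by GENCODE vM21 on mm10, codon 440 of 507 is a tyrosine codon at chr11:112785304-112785306 on the plus strand, inside the coding part. A stop codon there leaves out 68 codons, 13.4% of the reading frame. The stretch from 36 bases before to 36 bases after that codon, chr11:112785268-112785342, is shown with codon 440 in capitals.
Sox9 codon 440: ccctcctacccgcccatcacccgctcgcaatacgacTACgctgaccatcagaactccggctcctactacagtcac
The values below sum over both alleles, so they do not separate transcripts with the stop from those without. Because short reads of paralogs can be assigned to either copy, the coding sequences of Sox9 and Sox10 were also compared. Their longest identical run measured 44 bases, and 39 different 25-base words occurred in both, so reads lying within such a run could have been split between them. The 60-base windows around it, coding bases 238 to 297 of Sox9 and 235 to 294 of Sox10, agreed at 55 of 60 bases, and capitals mark the 5 that differ.
Sox9: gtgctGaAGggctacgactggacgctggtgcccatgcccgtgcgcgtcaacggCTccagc
Sox10: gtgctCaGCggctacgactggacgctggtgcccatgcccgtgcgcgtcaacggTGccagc
Among the other relatives, Sox4 and Sox11 shared a coding run of 48 bases and Sox4 and Sox12 one of 33, whereas the longest run of Sox5 and Sox6 was 17 coding bases.

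BC006965 (ENSMUSG00000041674.16, chr11:112663927-112781976, minus strand) runs away from Sox9 (ENSMUSG00000000567.5, chr11:112782224-112787760, plus strand). Of its 18 annotated transcripts, 1 starts head to head with Sox9, with 247 bases between the 2 genes. Another 10 start in a cluster 70.9 to 71.3 kb from the Sox9 start, and the deposited value, given per gene, does not say which start was used. RefSeq places its start in that distant cluster. The RefSeq window of 250 bases before and 50 after that start (GRCm38.p6, chr11:112711307-112711606, minus strand) is shown because BC006965 was low in the mutant cells together with Sox10. Capitals mark its 1 match to the SOX-type motifs AACAAT or AACAAAG, searched on both strands.
BC006965 promoter: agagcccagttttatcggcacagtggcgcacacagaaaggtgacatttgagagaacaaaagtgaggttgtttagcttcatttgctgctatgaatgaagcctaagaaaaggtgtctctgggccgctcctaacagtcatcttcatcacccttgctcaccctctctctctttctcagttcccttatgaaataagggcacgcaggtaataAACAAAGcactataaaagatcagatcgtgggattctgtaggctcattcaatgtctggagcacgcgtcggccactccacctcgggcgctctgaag
Of all 32851 windows of that kind, 15.7% held at least 1 match, so a match is a common feature and not a binding site by itself. Among the other members, 4 of the 6 Sox6 windows also held a match, 5 matches in all, although the detection intervals of Sox6 overlapped between genotypes, and the windows of Sox4, Sox5, Sox11 and Sox12 held 0. Windows were found for 6 of the 8 genes, and the set of windows searched held none for Sox9 or Sox10.

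Several features of the series bear on every value below. The deposited unit is FPKM, in which fragments are scaled by transcript length and by the fragments mapped in a cell. A gene was called detected at 1 FPKM or more, and a lower value may be a transcript that was not captured. Read depth is unknown, and genes above 0 stood in for it: wild-type cells listed a median of 5329 (2189 to 6493), and mutant cells listed 4423 (2035 to 9358). Cell titles begin with P10 or P9, prefixes that the labels do not explain. All 93 mutant cells and 1 wild-type cell have P9, and the other 32 wild-type cells have P10. A Y-linked gene was detected in 32 of 33 wild-type cells and in 4 of 93 mutant cells. Genotype, prefix and sex-linked expression therefore cannot be told apart. Epcam, an epithelial adhesion molecule, was detected in 32 wild-type and 81 mutant cells. The FPKM of a cell summed to between 60902 and 16361100, so level differences between groups are given relative to the median difference of all genes compared.

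The SOXE genes parted in the mutant cells: Sox9 was detected as often as in wild type, whereas Sox10 was detected in few cells. For Sox9, 30 of 33 wild-type cells passed that level (90.9%, exact 95% interval 75.7 to 98.1%), as did 84 of 93 mutant cells (90.3%, 82.4 to 95.5%). Its lowest, median and highest values were 0, 10.03 and 82.01 FPKM in wild-type cells and 0, 11.3 and 85.9 FPKM in mutant cells. The distributions thus overlapped over their whole range. On the log2(FPKM + 1) scale the means were 3.34 ± 1.61 (SD over 33 cells) and 3.33 ± 1.44 (SD over 93 cells). Relative to the median difference over all compared genes, which was -0.21, Sox9 stood 0.20 higher in mutant cells, a difference below its spread that took either sign over 11 other settings (-0.12 to 0.47).

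Sox10 (ENSMUSG00000033006.9, chr15:79154913-79164490, minus strand) passed it in 26 wild-type cells (78.8%, 61.1 to 91.02%), but only in 10 mutant cells (10.8%, 5.28 to 18.9%). The lowest, median and highest values were 0, 15.2 and 115 FPKM in wild-type cells and 0, 0 and 22.8 FPKM in mutant cells. Most mutant cells lay at 0, and the highest of them lay above the wild-type median but far under the wild-type maximum. The difference in detection, -68.0 percentage points, was the lowest of 10720 compared genes, whose median was -5.38 points. The mean of log2(FPKM + 1) was 3.38 ± 2.07 (SD, 33 cells) against 0.37 ± 1.09 (SD, 93 cells), a relative difference of -2.80, which was -4.77 with a pseudocount of 0.1 and -1.10 with 10 in place of 1.

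BC006965 was likewise detected in 26 wild-type cells (78.8%, 61.1 to 91.02%), but in 24 mutant cells (25.8%, 17.3 to 35.9%). The lowest, median and highest values were 0, 41.3 and 193 FPKM in wild-type cells and 0, 0 and 156 FPKM in mutant cells. A minority of mutant cells thus overlapped the wild-type range almost to its top. The difference in detection, -52.98 points, was the 6th lowest of the 10720 genes. The means of log2(FPKM + 1) were 4.597 ± 2.75 (SD) and 1.26 ± 2.30 (SD), a relative difference of -3.12 that ran from -4.68 to -1.62 over 11 other settings. Although BC006965 and Sox9 are neighbours on chromosome 11, only BC006965 was lower.

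Of the 8 genes, 6 were detected in at least 10% of the cells of either genotype and so entered the comparison of levels. Sox10 and BC006965 lay more than 1 log2 unit below the median, as did 5.56% of all compared genes, and none of the 6 lay more than 1 unit above, as did 1.55%. Among Epcam-positive cells alone Sox10 stood at -2.87 and BC006965 at -3.10, where 4.96% of genes were lower and 1.93% higher by 1 unit. The interval between 3000 and 5000 listed genes, which held 12 wild-type and 61 mutant cells, gave -3.62 and -3.23.

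**Figure D1:**
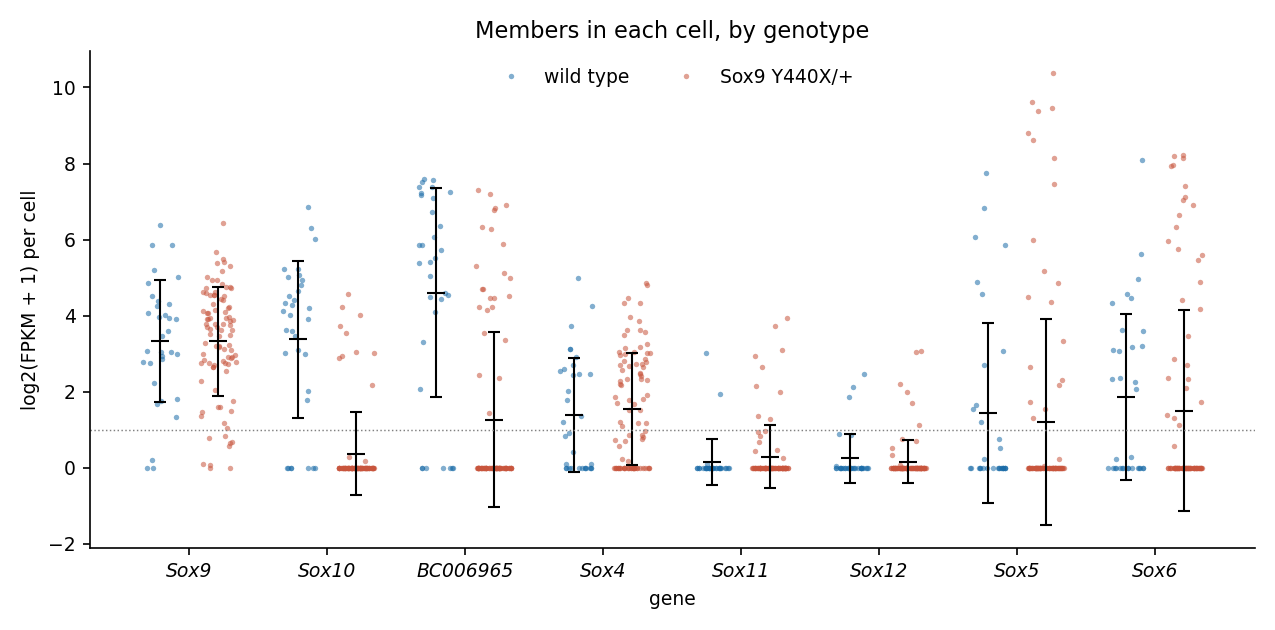
Each point is 1 cell, with log2(FPKM + 1) on the vertical axis and the 8 genes on the horizontal axis; blue points are the 33 wild-type cells and red points the 93 mutant cells, black bars show the mean and SD over cells, and the dotted line marks 1 FPKM. Sox9 overlaps in full, Sox10 and BC006965 pile up at 0 in mutant cells, and Sox5 and Sox6 each have a small upper group of cells.

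Among SOXC genes, Sox4 (ENSMUSG00000076431.4, chr13:28948919-28953713), a factor of progenitor cells, was detected in 48.5% of wild-type cells (16 of 33, interval 30.8 to 66.5%) and in 53.8% of mutant cells (50 of 93, 43.1 to 64.2%). Its values ran from 0 through a median of 0.895 to 30.9 FPKM in wild-type cells and from 0 through 1.29 to 27.9 FPKM in mutant cells. The ranges coincided, and the relative difference was 0.35, under the SDs of 1.49 and 1.48. An annotated neighbour, Gm26735, overlaps Sox4, and the counting by strand is not given in the sources used here. Sox11 (ENSMUSG00000063632.6, chr12:27334264-27342574) was detected in 2 wild-type and 9 mutant cells and reached 7.04 and 14.4 FPKM. Sox12 (ENSMUSG00000051817.8, chr2:152393611-152398063) was detected in 3 and 6 cells and reached 4.51 and 7.39 FPKM. Both fell under the filter on low values, and neither share differed between genotypes beyond its counting interval.

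Among SOXD genes, fewer mutant cells were positive, within counting error, and the positive ones had higher medians. Sox5 (ENSMUSG00000041540.16, chr6:143828425-144781977) was detected in 33.3% of wild-type cells (11 of 33, interval 17.96 to 51.8%) and in 21.5% of mutant cells (20 of 93, 13.7 to 31.2%). Sox6 (ENSMUSG00000051910.13, chr7:115470872-116038796) was detected in 48.5% of wild-type cells (16 of 33, interval 30.8 to 66.5%) and in 30.1% of mutant cells (28 of 93, 21.03 to 40.5%). The counting intervals overlapped for both. In positive cells the median of Sox5 was 22.7 FPKM in wild type and 31.6 FPKM in the mutant, and that of Sox6 was 9.67 and 45.4 FPKM. Sox5 reached 216 FPKM in wild-type and 1323 FPKM in mutant cells, and at least 100 FPKM in 2 of 33 and 8 of 93 cells. Sox6 reached 272 and 298 FPKM, and at least 100 FPKM in 1 and 9 cells. Over all cells the relative differences were -0.03 for Sox5 and -0.14 for Sox6. Taking the log2 of the mean FPKM instead, which a few high cells dominate, gave 1.76 and 0.85. Both genes are long and overlap other annotated genes, 7 at Sox5 and 2 at Sox6, some of them antisense, so reads could not be assigned to the SOXD strand with certainty. The overlapping genes Sox5os1 to Sox5os5, Sox5it and Sox6os were each detected in at most 1 cell of either genotype, which does not show how shared reads were assigned.

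**Figure D2:**
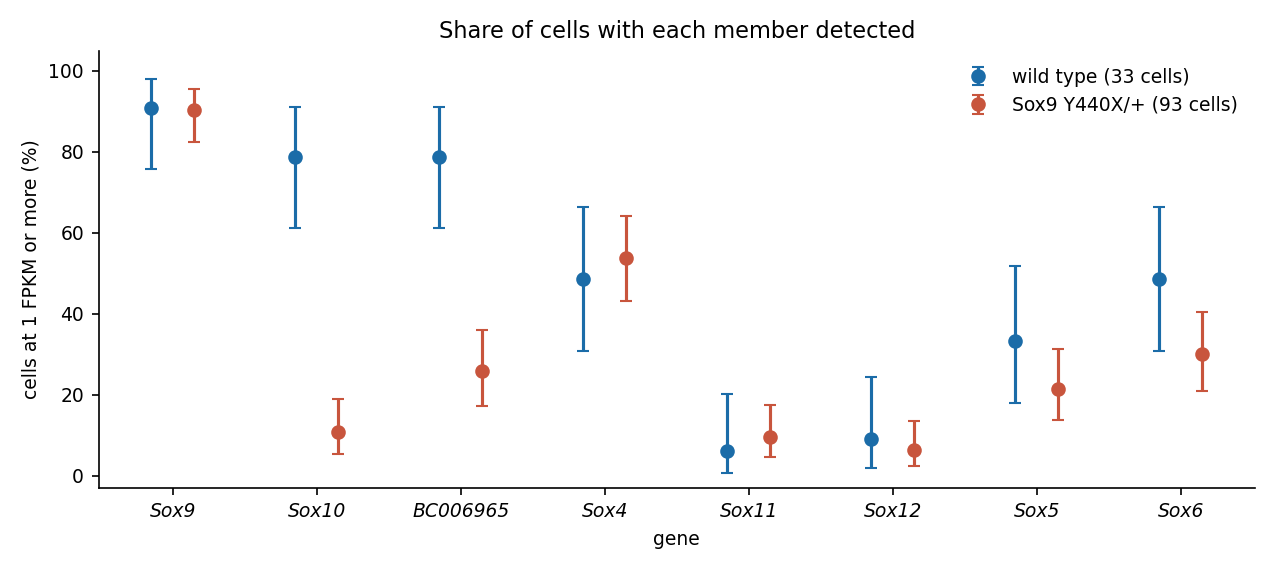
Points give the share of cells at 1 FPKM or more in percent for each of the 8 genes, in blue for 33 wild-type and in red for 93 mutant cells, and bars are exact 95% binomial intervals. The intervals are apart for Sox10 and BC006965 and overlap for the other 6 genes.

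Levels per positive cell were compared next, since a lower average can come from fewer positive cells or from less in each. In Sox9-positive cells the median was 12.6 FPKM in both genotypes, with quartiles of 6.37 and 19.5 FPKM in wild-type and 6.32 and 22.1 FPKM in mutant cells. In Sox10-positive cells the median was 18.7 FPKM (2.43 to 115, 26 cells) against 8.96 FPKM (3.56 to 22.8, 10 cells). In BC006965-positive cells it was 56.9 FPKM (3.25 to 193, 26 cells) against 25.04 FPKM (1.71 to 156, 24 cells). Both ranges overlapped between genotypes. Relative to the median over the 9091 genes compared this way, the mean log2 level in positive cells was lower by 0.95 for Sox10 and by 1.02 for BC006965, so that the latter passed 1 unit, as did 3.10% of genes. Sox4 and Sox9 stood at -0.08 and -0.11. Sox5 at 1.31 and Sox6 at 1.10 lay more than 1 unit higher, as did 4.12% of genes. Behind them were 11 and 16 positive wild-type cells and 20 and 28 positive mutant cells. For comparison, the SD over Sox5-positive cells was 2.29 in wild type and 3.14 in the mutant, wider than the difference.

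All cells, Epcam-positive or not, were also divided by their higher retinaldehyde dehydrogenase gene, Aldh1a1 or Aldh1a3, whose products make retinoic acid. A cell was called dominant for the gene that was higher and at 1 FPKM or more, which is a range and not a cell type. Wild-type cells comprised 14 Aldh1a1-dominant, 17 Aldh1a3-dominant and 2 with neither. Mutant cells comprised 41, 36 and 16. Sox10 was detected in 12 of 14 Aldh1a1-dominant wild-type cells (85.7%, 57.2 to 98.2%) and 6 of 41 mutant ones (14.6%, 5.57 to 29.2%). In Aldh1a3-dominant cells the counts were 14 of 17 in wild type (82.4%, 56.6 to 96.2%) and 4 of 36 in the mutant (11.1%, 3.11 to 26.1%). Both kinds of cell thus showed the low detection of Sox10, with relative differences of -2.92 in each, where 7.96% and 8.95% of genes were lower, and 5.85% and 5.03% higher, by 1 unit.

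BC006965 followed the same layout: 12 of 14 wild-type against 15 of 41 mutant Aldh1a1-dominant cells (85.7% and 36.6%), and 13 of 17 against 9 of 36 Aldh1a3-dominant cells (76.5% and 25%). Its relative differences were -2.91 and -3.06. In the 16 mutant cells with neither gene, Sox10 and BC006965 were detected in 0 cells, for which the exact interval reaches 20.6%, while Sox9 was detected in 12 (75%, 47.6 to 92.7%). All 12 mutant cells with Epcam under 1 FPKM also lacked detected Sox10 and BC006965, and 9 of them had Sox9.

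Within a genotype, no member differed by 1 log2 unit between the Aldh1a3- and Aldh1a1-dominant cells. In wild-type cells 12% of genes were lower and 8.63% higher by that much in Aldh1a3-dominant cells, and in mutant cells 8.26% and 4.50%. Sox9 came closest to the fold among SOXE genes, at -0.78 in wild type, where its median was 13.4 FPKM (0 to 82.01) in Aldh1a1-dominant and 6.99 FPKM (0 to 57.4) in Aldh1a3-dominant cells. The value of 57.4 FPKM came from a cell without detected Epcam. In mutant cells Sox9 stood at 0.18, with medians of 8.69 FPKM (0.0457 to 49.9) and 12.9 FPKM (0.576 to 85.9). The ranges overlapped in both genotypes, and whether the genotypes differ in this respect was not tested. Sox4 stood at 0.85 in wild type, with detection in 5 of 14 Aldh1a1- and 11 of 17 Aldh1a3-dominant cells, and at 0.17 in the mutant, with 23 of 41 and 21 of 36. Sox11 was detected in 0 of 14 and 2 of 17 wild-type cells and in 1 of 41 and 6 of 36 mutant cells, in that order. Sox6 was detected in 9 of 14 (35.1 to 87.2%) and 7 of 17 (18.4 to 67.1%) wild-type cells and in 16 of 41 (24.2 to 55.5%) and 8 of 36 (10.1 to 39.2%) mutant cells, with overlapping intervals in each genotype.

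**Figure D3:**
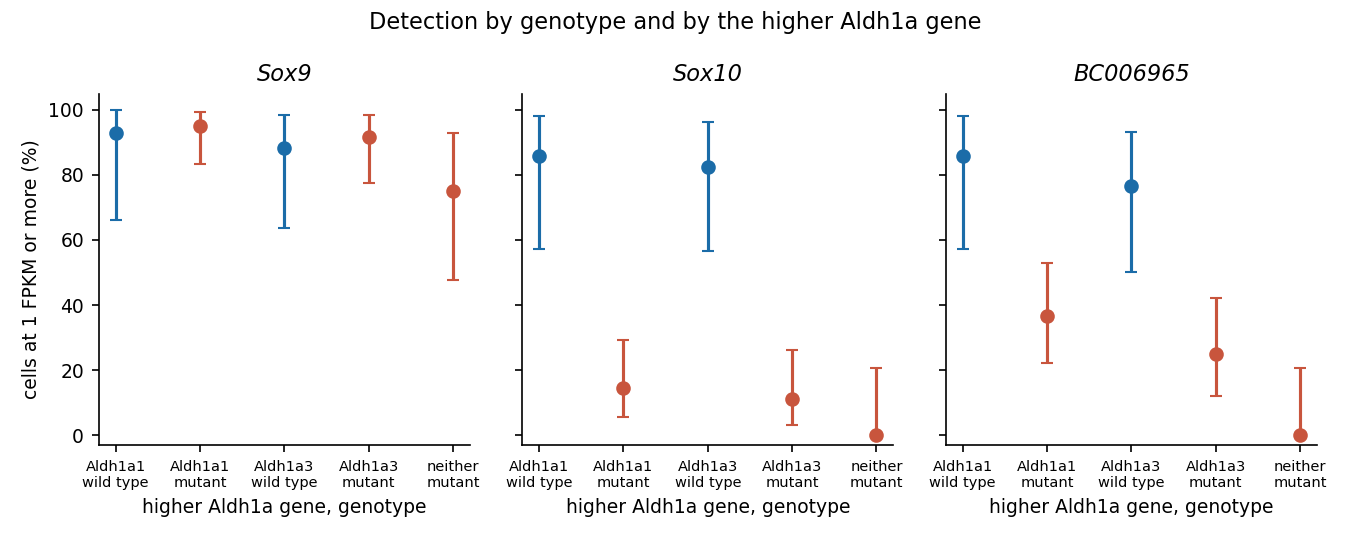
Points give the percent of cells with Sox9, Sox10 or BC006965 at 1 FPKM or more in cells grouped by genotype (blue wild type, red mutant) and by their higher Aldh1a gene, with exact 95% intervals. Sox10 and BC006965 are low in the mutant on both sides and at 0 of 16 where neither Aldh1a gene is detected; the 2 wild-type cells with neither gene are not drawn.

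In wild-type cells Sox9, Sox10 and BC006965 were usually found together. All 3 were detected in 20 of 33 cells (60.6%), and each of the 33 cells had Sox9 or Sox10. Sox9 and Sox10 met in 23 cells, against 23.6 from the product of their shares, so they were paired as often as their frequencies give. In mutant cells the most common state was Sox9 without the other pair, in 61 of 93 cells (65.6%). Sox9 with BC006965 alone occurred in 16, all 3 in 5, and none of the 3 in 5 cells. Sox9 and Sox10 met in 7 mutant cells, against 9.03 from the product of shares. Sox10 and BC006965 met in 7 mutant cells, against 2.58, whereas the same pair met in 22 wild-type cells, against 20.5. Among those 7 were cells in which a Y-linked gene was detected, including the cells that listed 9358 and 8246 genes. Leaving such cells out, BC006965 was detected in 4 of 7 mutant cells with Sox10 (18.4 to 90.1%) and in 17 of 82 without (12.6 to 31.1%). These intervals overlap, so the excess rests on few cells. Sox5 and Sox6 met in 3 wild-type cells, against 5.33, and in 6 mutant cells, against 6.02. Counting the 7 SOX genes, a wild-type cell had a median of 3 detected and a mutant cell 2, and 2 mutant cells had none.

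The 10 mutant cells with Sox10 tended to hold less Sox9 than the rest. Their Sox9 values ran from 0.0457 through a median of 1.70 to 16.9 FPKM, against 0, 12.1 and 85.9 FPKM in the 83 mutant cells without Sox10. Of the 10, Sox9 was detected in 7 (70%, 34.8 to 93.3%), compared with 77 of 83 (92.8%, 84.9 to 97.3%). The 3 others, at 0.0457, 0.493 and 0.800 FPKM, were among the 9 mutant cells without detected Sox9. Over all 93 mutant cells Spearman's rho between Sox9 and Sox10 was -0.26, which placed Sox9 at rank 4782 of 4792 genes. In the 33 wild-type cells it was -0.05, and Sox9 ran from 0 through 12.6 to 82.01 FPKM in the 26 cells with Sox10 and from 1.55 through 7.26 to 57.4 FPKM in the 7 without. The mutant value ranged from -0.33 to -0.23 over 7 other settings. With 10 positive cells it rests on few points, and a part played by reads shared between the paralogs was not tested.

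**Figure D4:**
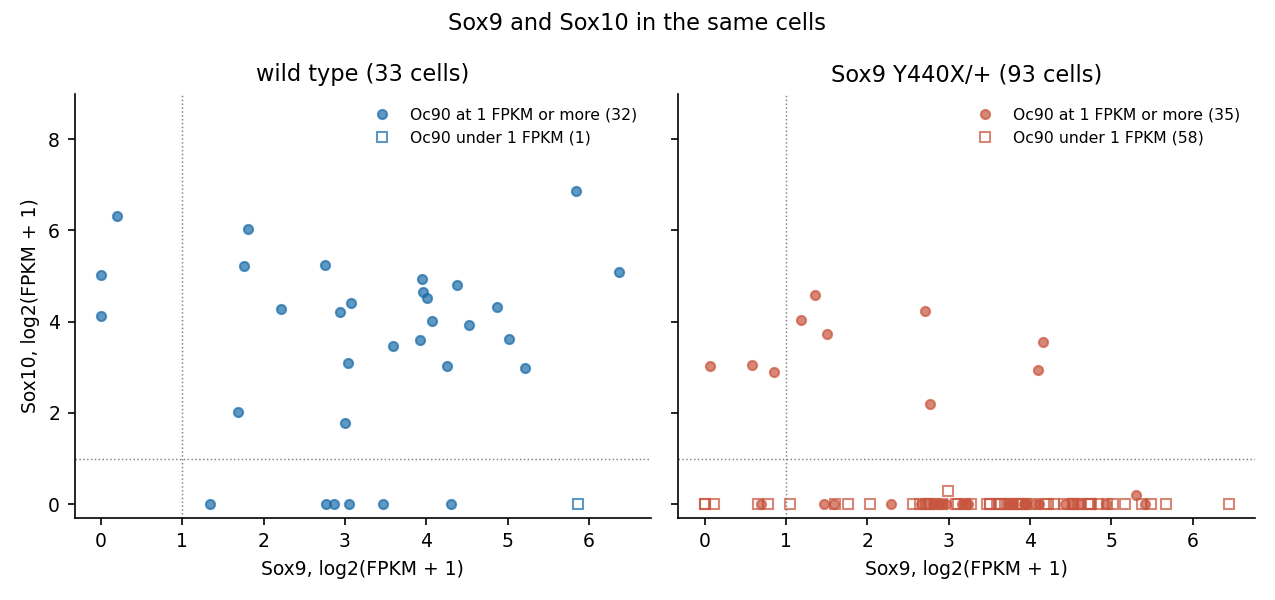
Each symbol is 1 cell, with Sox9 on the horizontal and Sox10 on the vertical axis, both as log2(FPKM + 1); the left panel holds 33 wild-type and the right 93 mutant cells, filled symbols have Oc90 at 1 FPKM or more, and dotted lines mark 1 FPKM. All 10 mutant cells above the horizontal line are filled, and most lie toward low Sox9.

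Among the genes that covaried with Sox10 in mutant cells, Oc90, which encodes otoconin-90, a protein of the otoconial matrix, ranked first with a rho of 0.49 over 93 cells and 4792 genes. All 10 mutant cells with Sox10 had Oc90, at 32.9 to 5816 FPKM (median 475), whereas 25 of the 83 others had it (30.1%, 20.5 to 41.2%), with a median of 0. Leaving out 4 mutant-labelled cells with a Y-linked gene, of which 3 are among the 10, gave a rho of 0.42 and Oc90 in 7 of 7 against 24 of 82 cells. Because Oc90 was found by this covariation, its share is the same observation in another form. The difference of 69.9 points was the highest of 9573 genes. Wild-type cells had Oc90 in 32 of 33 and a rho with Sox10 of -0.05, with both genes at 1 FPKM or above in most cells. Among Oc90-positive cells alone, a split chosen after its values were seen, Sox10 was found in 81.2% of wild-type cells (26 of 32, interval 63.6 to 92.8%) and 28.6% of mutant cells (10 of 35, 14.6 to 46.3%). Among the 58 mutant cells without Oc90 it was detected in 0, which leaves an upper interval bound of 6.16%, and Sox9 was detected in 53. The median of Sox9 was 6.84 FPKM (0.0457 to 41.6) in the 35 mutant cells with Oc90 and 12.4 FPKM (0 to 85.9) in the 58 without. All 10 mutant cells with Sox10 are among those 35, and whether Sox9 differed by Sox10 within the 35 was not tested.

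Another 8 genes among those most positively related to Sox10 in mutant cells had rho from 0.35 to 0.40. They were Naglu (a lysosomal enzyme of heparan sulfate breakdown), Crb3 (an apical polarity protein), Atp2b4 (a plasma membrane calcium pump), Pacsin2 (a membrane-shaping protein), Dusp5 (a phosphatase of ERK), Rdh10 (a retinol dehydrogenase of retinoic acid synthesis), Bex4 and Casp8 (an initiator caspase). Of these 9 genes, Oc90 included, 3 were themselves lower in the mutant by more than 1 log2 unit: Oc90 at -6.99, Naglu at -1.45 and Rdh10 at -1.17. Over all compared genes 5.56% were lower by that much. The 5 most negative were Hmgn2 (-0.30), Rac1, Gps1, Cdc42se2 and Tcp1 (-0.27), a chromatin protein, a small GTPase, a COP9 signalosome subunit, a CDC42 effector and a chaperonin subunit. BC006965 was detected in 25.8% of mutant cells, short of the 30% required of the ranked genes. Its rho with Sox10 was 0.33, which would place it at rank 12, and 0.22 without the 4 cells with a Y-linked gene. With Sox9 its rho was -0.10 in the mutant and 0.04 in wild type.

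In wild-type cells the median rho with Sox10 was 0.002 over 33 cells and 5951 genes, and all but a few percent lay between -0.33 and 0.35. The genes named here were picked from the ends of this spread, which does not by itself show a relation to Sox10. The genes closest to Sox10 had rho between 0.50 and 0.58. They were Isyna1 (inositol phosphate synthase), Rnf7 and Ufl1 (ligase components of the cullin and UFM1 systems), Rnf2 (a Polycomb ubiquitin ligase), H3f3b (histone H3.3), Misp, Wdr83os, Snrpn, Taf10 (a TFIID subunit) and Rps3a3, whose value is uncertain because ribosomal protein genes have near-identical copies. The 5 lowest, from -0.58 to -0.52, were Sar1a (a COPII GTPase), Pmm2 (phosphomannomutase), Phc3 (Polycomb), Rbm8a (exon junction complex) and Dera. Here 13 genes had a rho of at least 0.50 and 9 genes one of at most -0.50, against 0 genes of either kind in the mutant. In the mutant more cells contribute, most have Sox10 at 0, and all but a few percent of rho lay between -0.17 and 0.24. Of the 10 positive genes, 4 kept their sign in mutant cells (-0.21 to 0.17), as did 2 of the 5 negative ones. In the other direction, 7 of the 10 highest and 3 of the 5 lowest genes of the mutant kept their sign in wild-type cells.

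With Sox9, the 10 highest genes in wild type ran from 0.52 to 0.60: Phax (an snRNA export adaptor), Lig1 (DNA ligase), Tsc22d1, Tmem43, Midn, Banf1 (a chromatin and nuclear lamina factor), Rbm39 (a splicing factor), Tes, Ergic1 and Tctex1d2 (a dynein light chain). The 5 lowest were Hmgn1 (-0.55), Ccdc90b, Eif3g, Atrn and Mysm1 (-0.51), and in mutant cells 7 of the 10 highest were positive (-0.09 to 0.30) and 0 of these 5 were negative. Mutant cells gave smaller values, 0.35 to 0.41 for Sarnp, Eif4e2, Adh5, Rpsa, Fam104a, Psma5, Lsm3, Tomm6, Mlf2 and Higd1a, genes of mRNA export, translation, the proteasome, RNA decay and mitochondria among them. The lowest were Plcd1 (-0.31), Agpat2, Ahr, Dusp1 and Ccdc28b (-0.28). In wild-type cells 5 of these 10 and 2 of these 5 kept their sign. All 60 relations chosen by the rule kept their sign under 5 other ways of computing them. Those ways reuse nearly the same values by which the 60 were picked as extremes, so the kept signs add no support. With Sox9, all but a few percent of genes had rho between -0.31 and 0.38 in wild type and between -0.16 and 0.26 in the mutant. Every value also shares its cells, libraries and detection with the rest and is a description only. The partial rho given the number of listed genes was one of the 5 ways, since that number itself had a rho of 0.24 with Sox9 in wild type and 0.16 in mutant cells.

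Lists of known SOX targets were read beside the members. Of 15 SOXE and SOXD cartilage targets in the table, 9 entered the comparison between genotypes, with a median of -0.17 against 0 for all genes. In this comparison 5.56% of all genes were lower by 1 unit and 1.55% higher. Lect1, a cartilage matrix protein also called chondromodulin, was lower at -3.60, and Col9a3, a collagen IX chain, at -1.01, which makes 2 of 9. Col2a1, the main cartilage collagen, stood at -0.13 and Wwp2 highest at 0.69. Of 18 glial and melanocyte targets of SOX10, 7 were compared with a median of -0.33. Mia (-1.88), S100b (-1.38) and Dct (-1.18), a secreted protein of cartilage and melanoma, a calcium-binding protein and a melanin enzyme, were lower by over 1 unit, 3 of 7, and Mbp was highest at 0.37. Of 21 otic and sac genes, 12 were compared with a median of -0.33, and Oc90 (-6.99), Tbx2 (-1.73) and Lmx1a (-1.24) were lower by over 1 unit, 3 of 12. None of the 3 lists had a member higher by 1 unit. The members that passed the filter were those detected in enough cells of either genotype, so these counts do not cover the lists as a whole.

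The same genes were read inside the mutant by Sox10, where the 10 positive cells listed a median of 4840 genes and the others 4374, and a typical gene was detected 6.75 points more often in the positive cells. Of 18 glial and melanocyte targets 6 were compared, and all 6 lay above that median, where 49.9% of all 9573 genes did. Of 8 epithelial markers 7 lay above it too. S100b was detected in 6 of 10 against 7 of 83, Dct in 7 against 18, Erbb3, a neuregulin receptor, in 6 against 20 and Mia in 5 against 16. Wild-type cells differed: S100b was detected in 13 of 26 with Sox10 against 4 of 7 without, and Erbb3 in 12 against 4. Dct was detected there in 13 against 3 and Mia in 12 against 3, where a typical gene was 4.95 points more frequent with Sox10. Of 9 cartilage targets 6 lay above, among them Col11a2 in 6 against 13, Col9a2 in 7 against 23 and Lect1 in 4 against 8, with a list median of 17.5 points. The 3 below were Col9a1 in 1 against 11, Col11a1 in 5 against 42 and Hapln1 in 3 against 23. Without the cells with a Y-linked gene the median of all genes was 0.87 points, the glial and melanocyte list still had 6 of 6 above it, and the cartilage list had 5 of 9 and a median of 4.53 points. There S100b was detected in 3 of 7 against 7 of 82 and Lect1 in 1 of 7 against 8 of 82. Lists of other cell types were read for the same cells. Epcam was detected in 10 of 10. Foxd3, Fabp7, Ngfr and Cdh19 of 8 glial and neural crest markers, and Mitf, Pmel, Tyr, Tyrp1 and Mlana of 6 melanoblast markers, were listed at 0 in all 10, whereas S100b and Erbb3 of the first list and Dct of the second, given above, were detected more often in the 10 cells than in the others. The summed FPKM of the glial list ran from 0 through a median of 6.79 to 24.5 in the 10 cells, from 0 through 0 to 104.9 in the 83 others and from 0 through 5.49 to 126 in wild-type cells with Sox10. That of the melanoblast list ran from 0 through 36.6 to 98.6, from 0 through 0 to 140 and from 0 through 30.04 to 275 in the same order. The medians were thus higher in the 10 cells than in the 83 other mutant cells. The maxima were lower in the 10 cells, but a maximum over 10 cells tends to lie lower than one over 83. The part of these markers in the result was not tested. The list of blood genes, which holds haemoglobin, summed to 40464 FPKM in the highest of the 10 cells and to at most 72.98 FPKM in the others of that genotype without Sox10. The 26 wild-type cells with Sox10 had 4 of these glial and 4 of these melanoblast markers at 0 throughout.

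The same lists were read in the mutant by BC006965, where the 24 positive cells listed a median of 4637 genes and the 69 others 4297, and a typical gene was detected 5.07 percentage points more often in the positive cells. Of the 6 glial and melanocyte targets 4 lay above that median, where 49.8% of all genes did, and of the 9 cartilage targets 6 did. Without the cells with a Y-linked gene 3 of 6 and 4 of 9 did, near the 49.6% of all genes. Mia, detected in 4 of 24 against 17 of 69, and Egr2, a transcription factor of myelinating glia, in 5 against 14, did not follow their Sox10 split, in which Egr2 was detected in 5 of 10 against 14 of 83. Epcam was detected in all 24 cells with BC006965 and 57 of 69 without, Oc90 in 14 against 21, and S100b in 7 against 6. In wild-type cells S100b, chosen by its value, was detected in 17 of 26 with BC006965 and 0 of 7 without. Lect1 was detected in 17 and 5 of the same cells, Erbb3 in 13 and 3, and Egr2 in 5 and 1. The group without BC006965 is small, and no share over all genes was computed for this wild-type split. Sox9 was detected in 21 of 24 and 63 of 69 mutant cells, so its detection did not follow that of its neighbour.

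**Figure D5:**
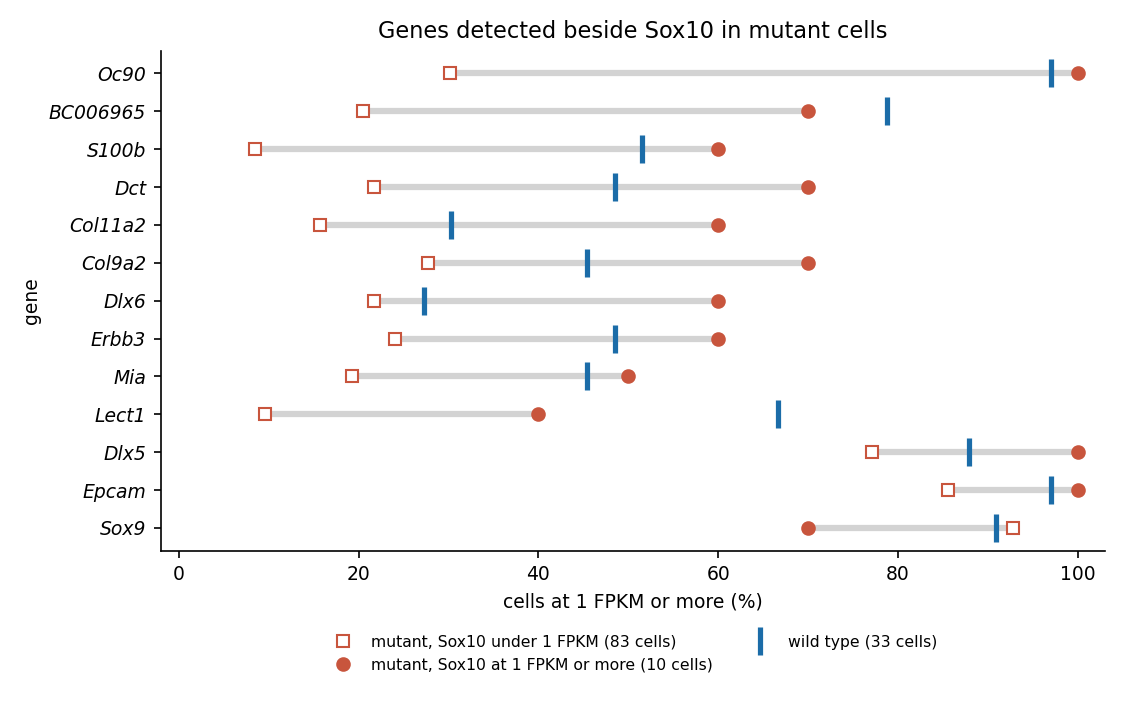
The horizontal axis gives the percent of cells at 1 FPKM or more for 13 genes chosen after their values were seen; filled red circles are the 10 mutant cells with Sox10, open squares the 83 without, and blue ticks all 33 wild-type cells. Oc90 is at 100% in the 10 cells and 30.1% in the others, and Sox9 is the gene that runs the opposite way.

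The remaining SOX genes were scarce. Sox13, the third SOXD gene, was detected in 4 wild-type cells (up to 9.11 FPKM) and 8 mutant cells (up to 46.5 FPKM), with a relative difference of 0.21. The endothelial SOXF genes Sox7, Sox17 and Sox18 were detected in 2, 1 and 1 mutant cells and in 0 wild-type cells. Sox21 did not reach 1 FPKM in any cell. Sox1, Sox2, Sox3, Sox8, Sox14, Sox15 and Sox30 were listed at 0 in all 126 cells, so Sox8, which completes the SOXE group, was not seen in the mutant cells that lacked Sox10.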

How the data were processed

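Single cells of the endolymphatic sac were compared by genotype label. The authors deposited 1 table of FPKM values per gene and cell, and per the submitters' processing notes HISAT2, SAMtools 0.1.18, Cufflinks, HTSeq and build mm10 were used, in roles not given. The 48555 rows were summed to 48490 identifiers. Values under 0.01 occur in every cell, so reads could not be recovered and depth is unknown. Detection was 1 FPKM or more. Shares carry exact Clopper-Pearson 95% intervals, and a count of 0 allows up to 3 counts. Levels were compared as means of log2(FPKM + 1), over genes detected in at least 10% of cells of either group, relative to their median. Spearman's rho used genes detected in 30% of the cells of 1 genotype. The 10 highest and 5 lowest were named, except 1 that is not reported here, leaving out predicted genes, pseudogenes, haemoglobin, mitochondrial and sex-linked genes. Of each list the extreme members were named, and further ones after their values were seen. No test was made, since the labels name no animal. Scripts were tested on simulated data (Python 3.11.15, scipy 1.17.1, pandas 2.3.3). The members and lists were chosen with earlier results of these data known. No doublet caller was run, and no cell was removed.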

Additional observations from a re-analysis of the deposited data

How the results depend on the processing

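No paired analysis was possible because no result comes from a test between samples, each genotype being 1 sample. Of 371 alternative values, 343 stayed within the band set for their kind and 28 moved. The band was the counting interval for shares of cells and the SD over cells for level differences. For rho it was a width set by the number of cells, and for shares of genes a fixed ratio. Reversal was scored only for the level differences of Sox10 and BC006965, where 0 occurred. Smaller level differences took either sign, as for Sox9 (-0.12 to 0.47), Sox5 (-0.34 to 1.76) and Sox6 (-0.59 to 0.85). Detection of Sox9 in mutant cells was 97.8% above 0 FPKM and 78.5% at 5 FPKM, as a looser or stricter level must give. Sox10 in wild-type Aldh1a1-dominant cells was at 100% among the 3 cells with 3000 to 5000 listed genes. The relative difference of Sox10 was -4.77 with a pseudocount of 0.1 and -1.10 with 10, and lay between these in 9 others. The share of all genes lower by 1 unit was 11.9% and 1.37% with those pseudocounts and 10.5% among cells with 3000 to 5000 listed genes. The share higher was 9.01%, 0.103% and 7.32% in that order, 2.86% after rescaling each cell to a common total, 9.24% from the log2 of the mean and 0.381% with no filter. The rho of BC006965 with Sox10 in the mutant was 0.22 without the cells with a Y-linked gene. The cause was not tested. Alternatives for rho and the Oc90 split that drop cells or set low values to 0 were chosen after seeing the data. Read depth is unknown, so a gene under 1 FPKM is not shown to be absent.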
